A study of Mus musculus with 6 samples.

Results

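The protein-coding genes of the mitochondrial genome were examined in nuclear RNA from HL-1, a line of mouse atrial cardiomyocytes that beats in culture. They were taken by type and symbol, as protein-coding entries whose symbol begins with mt-Nd, mt-Co, mt-Cytb or mt-Atp, which gave 12 genes among 28660 loci in all. RefSeq lists 13 protein-coding genes on this chromosome, and mt-Co1 was not analysed here. The chromatin pellet extract and the soluble nuclear extract of detergent-isolated nuclei had 3 libraries each, 6 in all, all from this line grown in Claycomb medium with serum, L-glutamine and norepinephrine. ERCC spike-ins, synthetic RNA standards, had been added to both fractions ahead of RNA extraction, and the libraries were depleted of ribosomal RNA and strand-specific. The authors deposited 1 pooled value per fraction and locus, in FPKM (fragments scaled to transcript length and library size). No values per replicate were analysed here, so no test could be run, and the depth of the libraries is not known.

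The mitochondrial chromosome encodes subunits of the respiratory chain and of the ATP synthase that sit in the inner membrane and work together with a larger number of nuclear-encoded subunits. It is transcribed inside the organelle from both strands as long precursors, which are cut largely at the transfer RNAs that lie between the coding genes. The light-strand promoter gives a single messenger RNA, mt-Nd6, and several transfer RNAs, and the heavy-strand promoter gives the remaining messages. In cardiomyocytes, which rely on oxidative metabolism, these messages belong to the most abundant RNAs of the cell. The nuclear genome also carries old insertions of mitochondrial sequence, and the mouse reference has one on chromosome 1 that is close in sequence to the present mitochondrial chromosome.

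Every mitochondrial protein gene was lower in the chromatin pellet than in the soluble extract. The fold is given as the log2 of pellet FPKM times 3.37 over soluble FPKM, the factor being the least-squares slope of soluble on pellet FPKM over 82 spike-ins. A value of 0 on this spike-in scale means equal RNA relative to the spike-ins, which reads as equal RNA only if both fractions received the same spike-in amount. In bulk fractions, material from fewer nuclei and less RNA per nucleus cannot be told apart. All 12 genes were at least 2-fold lower in the pellet and 0 were higher, with log2 folds between -2.97 and -1.34 and a median of -2.07. Over all loci without a filter, 8.88% were at least 2-fold lower and 49.8% at least 2-fold higher. Of the 12 genes, 8 had a mean of both fractions of at least 0.5 FPKM. Among the 13917 loci past this mean, 10.5% were at least 2-fold lower and 31.9% higher. The median log2 fold of these loci was 0.41. Without the spike-in factor, on the FPKM scale, all log2 values are lower by 1.75, which puts the median of the 12 genes at -3.82 and that of the 13917 loci at -1.34. All 12 genes were again at least 2-fold lower on the FPKM scale, where 44.6% of all loci without a filter were lower and 22.6% higher, and 61.2% of the 13917 loci were lower and 9.66% higher. The median of the 12 genes was thus below that of the 13917 loci, by the same amount on either scale, as a constant shift requires.

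The levels of these genes fell into separate ranges that followed position on the chromosome. mt-Nd1, mt-Nd2, mt-Nd4, mt-Nd5, mt-Nd6 and mt-Cytb, 6 genes, had 12.1 to 43.4 FPKM in the pellet and 319.6 to 786.6 FPKM in the soluble extract. mt-Co2, mt-Atp8, mt-Atp6, mt-Co3, mt-Nd3 and mt-Nd4l, the other 6 genes, had 0.0321 to 0.103 FPKM in the pellet and 0.274 to 1.40 FPKM in the soluble extract. No gene lay between. The lowest gene of the upper range, mt-Nd4, exceeded the highest of the lower range, mt-Atp8, 117-fold in the pellet and 229-fold in the soluble extract. The 6 low genes stand next to each other in 1 unbroken run, bounded by mt-Nd2 on one side and mt-Nd4 on the other among the genes measured.

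**Figure D1:**
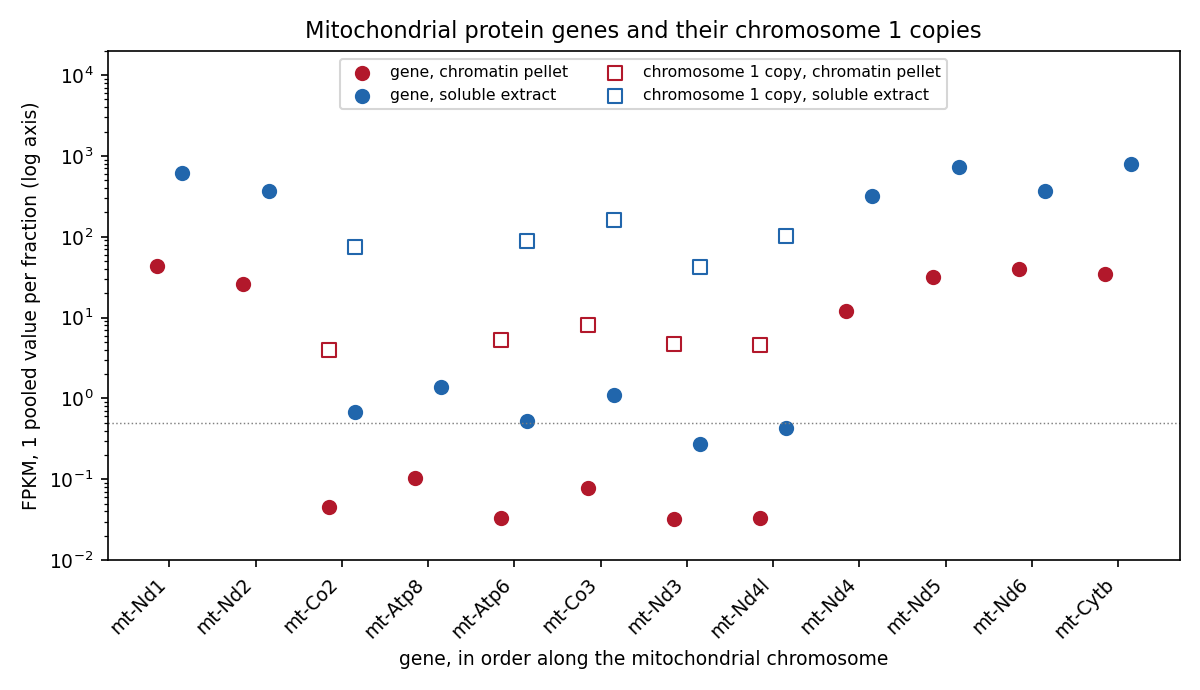
FPKM on a log axis for the 12 mitochondrial protein genes (filled circles) in their order along the chromosome, with the chromatin pellet left of the soluble extract for each gene, and for the 5 whole-gene copies on chromosome 1 (open squares); each point is 1 pooled value, without error, and the dotted line marks 0.5 FPKM. The run from mt-Co2 to mt-Nd4l lies below 2 FPKM in both fractions while its copies lie between 4.02 and 159.1 FPKM.

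Among the genes of the upper range, mt-Nd4, mt-Nd5 and mt-Cytb lay furthest towards the soluble extract. mt-Nd4 encodes a proton-pumping subunit of complex I, the NADH dehydrogenase. Its level was 12.1 FPKM in the pellet and 319.6 FPKM in the soluble extract, a log2 fold of -2.97. The pellet thus held 11.3% of its spike-in-scaled total, the lowest share of the 12 genes. Of 11397 protein-coding loci past the mean of 0.5 FPKM, 4 had a lower log2 fold than mt-Nd4. Of its 1378 bases, 877 lie in a stretch with a copy on chromosome 1, described below. mt-Nd4 also shares a locus with mt-Nd4l, and the sources used here do not say how fragments were divided between them.

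mt-Nd5, which encodes another antiporter-like subunit of the complex I membrane arm, had 31.9 FPKM in the pellet and 733.2 FPKM in the soluble extract. Its log2 fold was -2.77. mt-Cytb encodes cytochrome b, the catalytic subunit of complex III that the mitochondrion itself supplies, and had 34.6 FPKM in the pellet and 786.6 FPKM in the soluble extract. At a log2 fold of -2.75 it stood beside mt-Nd5, and it was the most abundant of the 12 genes in the soluble extract. Among the same protein-coding loci its rank was 448 in the pellet and 32 in the soluble extract.

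The genes nearest to the heavy-strand promoter were less far towards the soluble extract than these 3. mt-Nd1, which encodes the subunit at the quinone site of complex I, had 43.4 FPKM in the pellet and 614.0 FPKM in the soluble extract, a log2 fold of -2.07. It was the highest of the 12 genes in the pellet. mt-Nd2, a further membrane-arm subunit of complex I, had 26.2 FPKM in the pellet and 367.1 FPKM in the soluble extract, a log2 fold of -2.06. Although their levels differed, the log2 folds of mt-Nd1 and mt-Nd2 were 0.01 apart.

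mt-Nd6, a complex I subunit and the messenger RNA of the light-strand promoter, had 39.6 FPKM in the pellet and 368.9 FPKM in the soluble extract. Its log2 fold was -1.47, so that the pellet held 26.6% of the spike-in-scaled total. In the soluble extract its level matched that of mt-Nd2, while in the pellet it was second to mt-Nd1. mt-Nd6 and mt-Nd5 share a locus in the table, and their annotated genes overlap by 14 bases on opposite strands. The kit keeps strand, but the sources used here do not say whether the counting used it.

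The scatter of the spike-ins is the error that the table allows. It covers library preparation and the quantification of the spike-ins, but neither the fractionation nor the cultures. How fragments were divided among genes that share a locus, or between a gene and its chromosome 1 copy, is not covered either. The spike-ins above a mean of 50 FPKM had log2 residuals with an SD of 0.09 (n = 8 spike-ins, range -0.15 to 0.12), which gives 0.12 for the difference of a pair of such values. Against that yardstick mt-Nd5 and mt-Cytb, 0.02 apart, and mt-Nd1 and mt-Nd2 were not told apart. mt-Nd4 was 0.20 below mt-Nd5, or 1.66 times the SD. The log2 fold of mt-Nd5 minus that of mt-Nd1 was -0.70 (5.82 times the SD), and that of mt-Cytb minus mt-Nd1 was -0.68 (5.69 times). For mt-Nd5 minus mt-Nd6 it was -1.30 (10.8 times). These ratios describe pooled values, are no test across cultures and leave out any error from dividing fragments at shared loci.

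**Figure D2:**
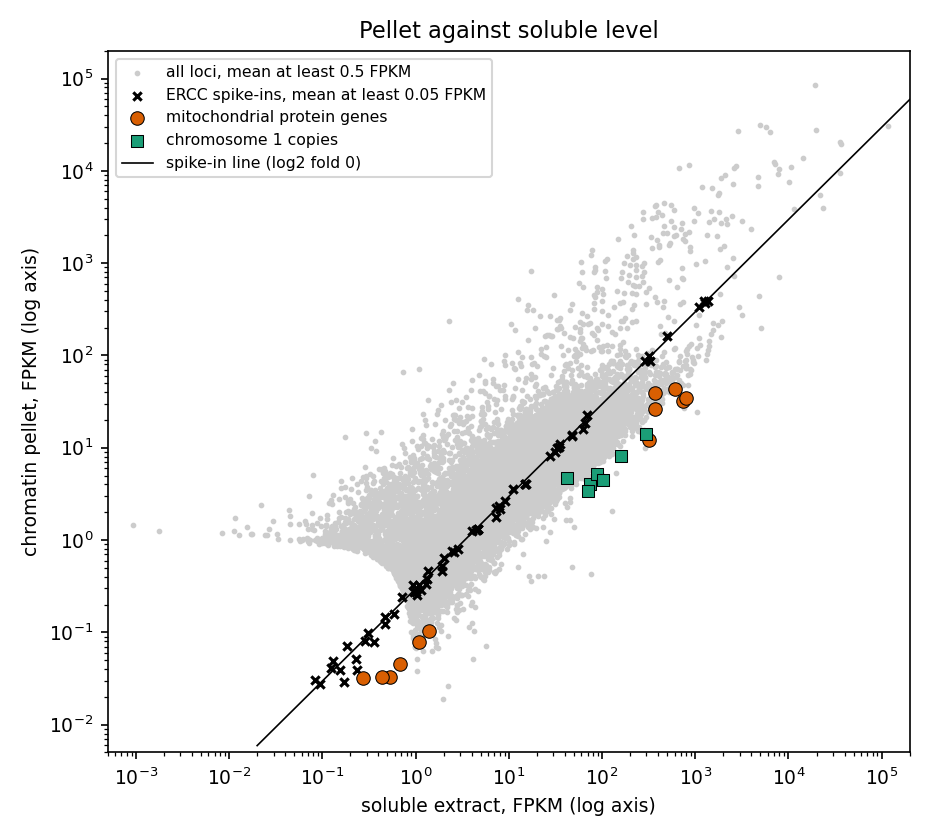
Pellet against soluble FPKM, both on log axes, for 13917 loci averaging 0.5 FPKM or more (grey), spike-ins averaging 0.05 FPKM or more (crosses), the 12 mitochondrial protein genes (circles) and the 7 chromosome 1 copies (squares); the line is the spike-in factor of 3.37. All circles and squares lie below the line, with the circles in a high and a low group and 6 of the 7 squares between them.

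The 6 low genes also lay towards the soluble extract, at levels where the spike-ins scattered more. mt-Co2 encodes the subunit of cytochrome c oxidase (complex IV) that receives electrons from cytochrome c, and had 0.0456 FPKM in the pellet and 0.685 FPKM in the soluble extract, a log2 fold of -2.16. mt-Co3, a structural core subunit of the same oxidase, had 0.0776 FPKM in the pellet and 1.10 FPKM in the soluble extract, a log2 fold of -2.07. These 2 log2 folds were near that of mt-Nd1, but at far lower levels. Summed with the chromosome 1 copies described below, mt-Co2 had -2.46 and mt-Co3 had -2.55.

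The ATP synthase genes mt-Atp8 and mt-Atp6 encode membrane subunits of complex V and overlap by 43 bases on a joint messenger RNA. mt-Atp8 had 0.103 FPKM in the pellet and 1.40 FPKM in the soluble extract, a log2 fold of -2.01. mt-Atp6 had 0.0331 FPKM in the pellet and 0.531 FPKM in the soluble extract, a log2 fold of -2.25. They share 1 locus in the table with mt-Co3, and the sources used here do not say how fragments were divided among the 3 genes.

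The small complex I genes closed the low run. mt-Nd4l, whose annotated gene overlaps mt-Nd4 by 7 bases on a joint messenger RNA, had 0.0330 FPKM in the pellet and 0.437 FPKM in the soluble extract, a log2 fold of -1.97. mt-Nd3 was the lowest of all, with 0.0321 FPKM in the pellet and 0.274 FPKM in the soluble extract, and its log2 fold of -1.34 was the smallest in size of the 12 genes. Of the low genes, mt-Atp8 and mt-Co3 (means of 0.750 and 0.589 FPKM) passed the mean of 0.5 FPKM through their soluble level alone, and mt-Co2 (0.365 FPKM) was the nearest below it. Spike-ins with a mean of both fractions between 0.05 and 0.5 FPKM had an SD of 0.37 (n = 16 spike-ins, range -0.84 to 0.35). All 6 low genes had lower log2 folds than any of these. Spike-ins with a mean below 0.05 FPKM scattered more widely, from -0.78 to 1.70. The order of the low genes among themselves up to mt-Nd4l is within the scatter of the spike-ins at 0.05 to 0.5 FPKM. mt-Nd3 was 0.63 above mt-Nd4l, or 1.20 times the SD of such a difference (0.53), which does not set it clearly apart. With a pseudocount of 1 FPKM the 6 low genes lost the 2-fold difference, and with 0.1 FPKM mt-Nd3 alone did.

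A run of pseudogenes on chromosome 1 lined up with the low genes. RefSeq on GRCm38.p6, the build equal to mm10, names Gm10925 (chromosome 1, 24613971 to 24614651) with mt-Atp6 as a synonym. With that pair laid on each other in reverse, 7 unprocessed pseudogenes between 24611535 and 24616197 fell on mitochondrial positions 6381 to 11043. The ends of the mt-Atp6 pair meet by this construction, and the ends of Gm28661, Gm28437, Gm28438 and Gm10222 met those of mt-Co2, mt-Co3, mt-Nd3 and mt-Nd4l within 3 bases. Gm29216 fell on the last part of mt-Co1. Gm28439 covered mt-Nd4l and the first part of mt-Nd4 as far as position 11043. The copied stretch is counted here from 6381 to 11043 with the gaps between pseudogenes included. The 6 low genes lie wholly in it, 5 of the 6 high genes lie wholly outside, and mt-Nd4 has 501 of its 1378 bases outside. mt-Atp8, at 7766 to 7969, has no whole-gene copy. Most of it falls in the gap between Gm28661, which ends at mitochondrial position 7693, and Gm10925, which starts at 7927. This match rests on coordinates and lengths, as no sequence of either chromosome was used here.

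The copies were far higher than their mitochondrial counterparts in both fractions. Gm28661, the mt-Co2 copy, had 4.02 FPKM in the pellet and 74.8 FPKM in the soluble extract. Gm10925, the mt-Atp6 copy, had 5.23 FPKM in the pellet and 88.7 FPKM in the soluble extract. Gm28437, the mt-Co3 copy, had 8.05 FPKM in the pellet and 159.1 FPKM in the soluble extract. Each of these 3 exceeded its counterpart, by 88.2-fold to 158-fold in the pellet and by 109-fold to 167-fold in the soluble extract.

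Gm28438, the mt-Nd3 copy, had 4.65 FPKM in the pellet and 42.4 FPKM in the soluble extract, and Gm10222, the mt-Nd4l copy, had 4.52 FPKM in the pellet and 102.2 FPKM in the soluble extract. Gm28439, over the first part of mt-Nd4, had 3.43 FPKM in the pellet and 71.6 FPKM in the soluble extract. The highest copy was Gm29216, over the end of mt-Co1, with 14.1 FPKM in the pellet and 294.6 FPKM in the soluble extract, close to the soluble level of mt-Nd4. Gm28439 and Gm10222 share a locus in the table. The sources used here do not say how fragments that match both chromosomes were assigned. Their part in the levels and folds of the 6 low genes and of mt-Nd4 was not tested.

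The pellet folds of the copies lay in the range of the mitochondrial genes. All 7 were at least 2-fold lower in the pellet, beside 10.5% of the 13917 loci. The log2 folds of the copies ran from -2.74 to -1.44, with a median of -2.55. The mt-Nd3 copy was the least far towards the soluble extract (-1.44), as mt-Nd3 itself was among the genes (-1.34), and the mt-Atp6 copy (-2.33) differed from mt-Atp6 by -0.08. The largest difference was that of the mt-Nd4l copy from mt-Nd4l, -0.77. With each gene summed with its copy, the log2 folds were -2.46 for mt-Co2, -2.33 for mt-Atp6, -2.55 for mt-Co3, -1.43 for mt-Nd3 and -2.74 for mt-Nd4l, and the median of the 12 genes was -2.40. The mitochondrial gene supplied less than its copy in all 5 sums, at most 1.12% of the pellet sum and 0.907% of the soluble sum, both for mt-Co2.

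The 12 genes together held 0.181% of the summed FPKM of protein-coding loci in the pellet and 0.829% in the soluble extract. With the copies added, the sums were 232.0 FPKM in the pellet and 4027 FPKM in the soluble extract. The 7 copies made up 44.0 FPKM of the pellet sum and 833.3 FPKM of the soluble sum.

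Transfer RNAs of the mitochondrial chromosome, which are cut from the same precursors and punctuate them, varied more than the protein genes. Of 13 measured, 7 were at least 2-fold lower in the pellet and 0 were higher, beside 10.5% and 31.9% of the 13917 loci. The median log2 fold of these transfer RNAs was -1.13. mt-Tt, the threonine transfer RNA that follows mt-Cytb, was lowest, with 24.3 FPKM in the pellet and 1033 FPKM in the soluble extract and a log2 fold of -3.65. mt-Tv, the valine transfer RNA between the ribosomal RNA genes, had a log2 fold of -2.19. At the other end mt-Ta, for alanine, had 107.3 FPKM in the pellet and 300.4 FPKM in the soluble extract, a log2 fold of 0.27 that turns to -1.48 on the FPKM scale. mt-Tp, for proline, followed with -0.10. FPKM of RNAs this short depends on a poorly determined effective length.

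By coding strand, the median of RNAs from the light-strand promoter lay nearer to 0 than that of RNAs from the heavy-strand promoter. As for mt-Nd6, the sources used here do not say whether the counting used strand. mt-Nd6 shares its locus with the heavy-strand gene mt-Nd5. The locus of mt-Tq has the same start, 2751, as that of the heavy-strand genes mt-Nd1 and mt-Ti. The light-strand RNAs measured were mt-Nd6 and the transfer RNAs mt-Tq, mt-Ta, mt-Tc and mt-Tp, for glutamine, alanine, cysteine and proline. These 5 had a median log2 fold of -0.83 (range -1.47 to 0.27), and 2 of them, mt-Nd6 and mt-Tq, were at least 2-fold lower in the pellet. The 20 heavy-strand RNAs, which include the 6 low genes, had a median of -2.06 (range -3.65 to -0.33), and 17 were at least 2-fold lower. Of all loci without a filter, 8.88% were at least 2-fold lower. For transfer RNAs alone the medians were -0.47 (4 light-strand) and -1.70 (9 heavy-strand). On the FPKM scale the medians of all light-strand and all heavy-strand RNAs were -2.59 and -3.82. The neighbours mt-Tt and mt-Tp, which face each other on opposite strands, had the lowest and the second highest log2 fold of the transfer RNAs. The strands overlapped: the heavy-strand transfer RNAs mt-Tl2 (-0.33), mt-Tf (-0.61) and mt-Tr (-0.78) and the heavy-strand message mt-Nd3 (-1.34) lay above mt-Nd6. The RNAs of 1 strand share precursors and are not independent, so the medians are a description.

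**Figure D3:**
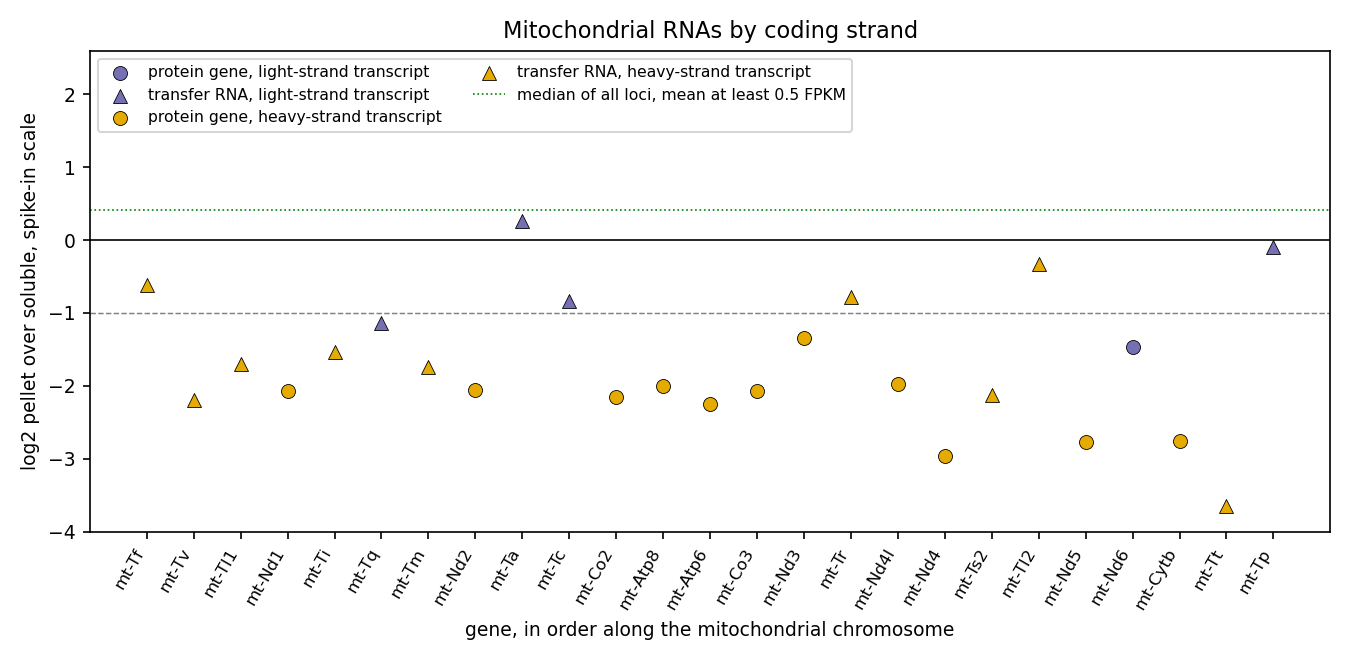
Log2 of pellet over soluble on the spike-in scale for the 12 protein genes (circles) and 13 transfer RNAs (triangles) in chromosomal order, coloured by the promoter that transcribes them; each point is 1 pooled value, the dashed line marks 2-fold lower in the pellet and the dotted line the median of the 13917 loci averaging 0.5 FPKM or more (0.41). The 5 light-strand RNAs lie between -1.47 and 0.27, and mt-Nd6 is the highest protein gene outside the low run.

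Nuclear genes for the same complexes also lay towards the soluble extract, but less far than mt-Nd4, mt-Nd5 and mt-Cytb. All 72 of these nuclear genes passed the mean of 0.5 FPKM. Of them, 62 were at least 2-fold lower in the pellet, beside 10.5% of the 13917 loci, and 0 were higher, beside 31.9%. The median log2 fold of the 72 genes was -1.57. For complex I, 29 of 36 were lower with a median of -1.57, and the lowest were Ndufb6 (-1.98) and Ndufa8 (-1.97), both accessory subunits. For complex III, 9 of 9 were lower with a median of -1.66, led by Uqcrq (-2.39) and Uqcr11 (-1.91), small subunits of that complex. Of the nuclear genes 0 had a lower log2 fold than mt-Cytb, and 1, Uqcrq, had a lower one than mt-Nd1. mt-Nd6 stood within the nuclear range, with 44 of 72 below it.

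For complex IV, 11 of 12 nuclear genes were at least 2-fold lower in the pellet, beside 10.5% of the 13917 loci. The complex IV median was -1.77, and Cox6b1 (-1.96) and Cox6a1 (-1.88) were the lowest. For complex V, 13 of 15 were lower with a median of -1.43, led by Atp5e (-2.04) and Atp5j2 (-1.72). In the soluble extract the nuclear genes had a median of 143.2 FPKM, and mt-Cytb and mt-Nd5 were exceeded by 1 of them, Atp5b, the catalytic beta subunit of the ATP synthase (1744 FPKM). Every nuclear gene had more soluble FPKM than each of the 6 low mitochondrial genes. The differences between the mitochondrial and nuclear genes have no replicate error and were not tested.

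Factors that act on mitochondrial DNA and RNA, all encoded in the nucleus, had medians near that of the 13917 loci. Of 28 transcription and RNA factors past the mean of 0.5 FPKM, 3 were at least 2-fold lower in the pellet (10.7%, beside 10.5% of the 13917 loci) and 4 higher (beside 31.9%). Their median log2 fold was 0.35, and on the FPKM scale 21 were lower (beside 61.2%). Slirp, whose product binds mitochondrial messages, had -2.09, and Hsd17b10, a component of mitochondrial RNase P, had -1.56. Tbrg4 (1.78, or 0.02 on the FPKM scale) and Mtpap, the mitochondrial poly(A) polymerase (1.35, or -0.40), were the highest. Of 10 genes for the upkeep of mitochondrial DNA, 0 were lower and 2 were higher, Polg2 (1.30) and Polg (1.02), which encode subunits of the mitochondrial DNA polymerase. The median was 0.41, and 6 were lower on the FPKM scale. The folds of both genes turn to -0.45 and -0.73 on the FPKM scale, and the medians of both lists turn negative there, at -1.40 and -1.34.

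Messages for the outer membrane and for the endoplasmic reticulum lay between these groups. Of 10 outer membrane genes, 4 were at least 2-fold lower in the pellet, beside 10.5% of the 13917 loci, and 0 were higher. The median was -0.82, or -2.58 with 10 of 10 lower on the FPKM scale, where 61.2% of loci were lower. The lowest were the import pore subunits Tomm7 (-1.87) and Tomm6 (-1.54). Of 18 genes for endoplasmic reticulum proteins, 12 were lower and 0 were higher. The median was -1.19, or -2.94 with 18 of 18 lower on the FPKM scale. The lowest were the translocon subunit Sec61b (-2.08) and Ddost (-1.63). Airn, an imprinted noncoding RNA that acts at its own locus, had 4.37 and was the sole member past 0.5 FPKM of a list of nuclear-retained RNAs.

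**Figure D4:**
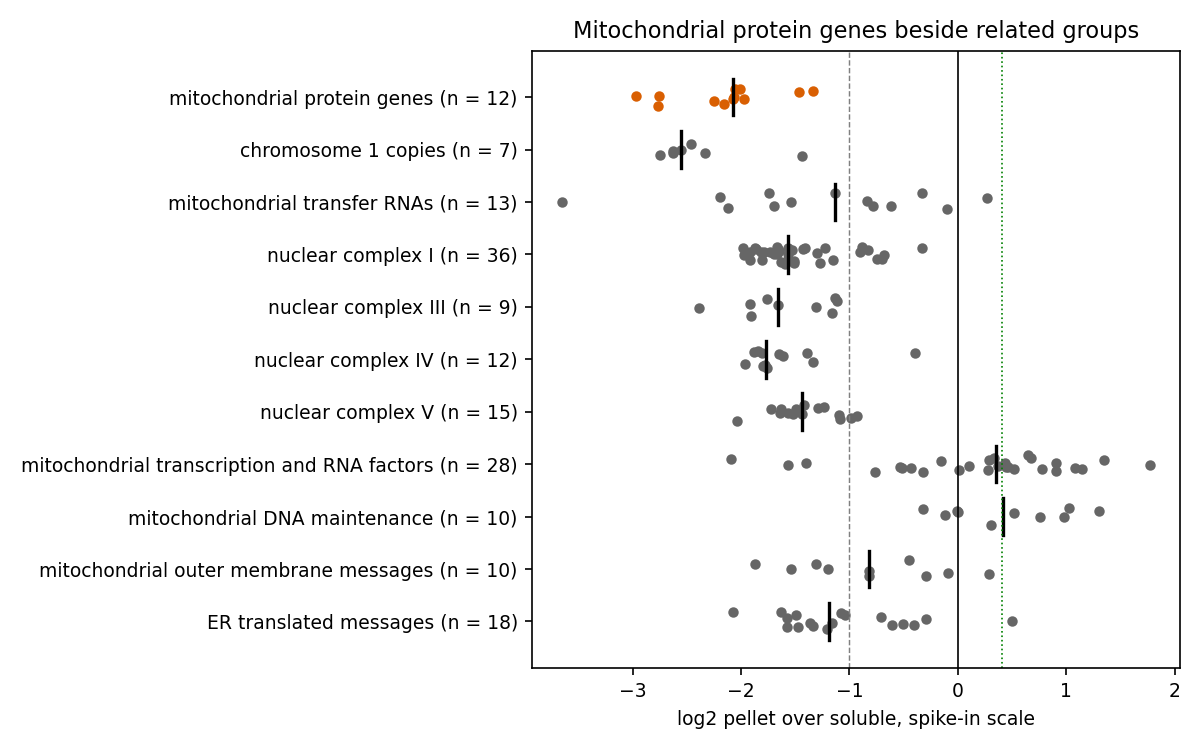
Log2 of pellet over soluble on the spike-in scale for the 12 mitochondrial protein genes (top), the chromosome 1 copies, the mitochondrial transfer RNAs and related groups of nuclear genes; each dot is 1 gene, black bars are medians, the dashed line marks 2-fold lower in the pellet and the dotted line the median of the 13917 loci averaging 0.5 FPKM or more (0.41). The nuclear groups show genes averaging 0.5 FPKM or more, the mitochondrial genes are shown without a filter, and the leftmost 3 protein genes (-2.97, -2.77 and -2.75) lie left of every nuclear gene plotted.

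The protein-coding loci most like the mitochondrial genes in level were sought by distance over the 2 pooled values on a log10 scale. Nearest to the median of the log10 values of the 12 genes (equal to 1.12 FPKM in the pellet and 21.1 FPKM in the soluble extract) were Gm561, Ddt, Crip1, Cotl1 and Mpst, with distances of 0.0916 to 0.186. No mitochondrial gene itself lies near that median. For the median of the log10 values of the 6 high genes (equal to 33.2 FPKM in the pellet and 475.9 FPKM in the soluble extract), a target added after the values were seen, the nearest were Cox6b1 of complex IV, the ribosomal protein gene Rps26, Uqcr10 of complex III, the ribosomal protein gene Rpl34 and the histone gene Hist1h2bg, with distances of 0.0332 to 0.0591.

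Atrial cardiomyocyte markers, the check on the labelled cell type, were present, with all 12 in the table averaging 0.5 FPKM or more and a summed level of 745.7 FPKM in the pellet and 3823 FPKM in the soluble extract, with Tnnt2 the highest in the pellet and Myl7 in the soluble extract. Smooth muscle markers, led by Acta2, summed to 289.9 FPKM in the pellet and 1922 FPKM in the soluble extract, and fibroblast markers, led by Col3a1, to 89.4 FPKM in the pellet and 346.7 FPKM in the soluble extract. Endothelial, skeletal muscle and immune markers summed to at most 2.47 FPKM in the pellet and 7.07 FPKM in the soluble extract.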

How the data were processed

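The submitters' processing notes name mm10 as the build and HISAT2, Cufflinks, Cuffdiff, SAMtools and bedtools as tools, without versions or settings. Per the file headers, the authors deposited 1 FPKM value per fraction, a rescaled pellet signal, a total signal, the ratio of rescaled pellet to soluble as chromatin enrichment, and the log10 of total and ratio. The rescaled signal equals pellet FPKM times the spike-in slope of 3.37. Of 30687 lines, 1945 repeated an identifier and were dropped, which left 28660 loci and 82 spike-ins. No pseudocount was added, since 0 values were 0. Starts in the table count from 0, and 1 was added. Log2 folds were recomputed in Python 3.11.15 with pandas 2.3.3, and the calculation was tested on simulated data. The planned limma fit was not run, because each fraction has 1 pooled value. Lists are described by counts at 2-fold and by medians, beside all loci averaging 0.5 FPKM or more. Genes named are every mitochondrial protein gene, the extremes of the transfer RNAs, up to 2 per list and direction that pass 2-fold, and the 5 nearest loci. Marker lists are given by sums only. The genes and lists were chosen with earlier results of these data known. A list of nuclear copies drawn up by symbol was replaced by position on chromosome 1 once it was seen to hold loci from elsewhere.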

Additional observations from a re-analysis of the deposited data

How the results depend on the processing

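Every gene that an alternative covered stayed below 0: 12 genes under the other scale, factor, filter-free setting and pseudocounts, 6 at a mean of at least 5 FPKM, and 5 summed with a chromosome 1 copy. The other scale, the filter settings and the pseudocounts cannot turn a value below 0 positive, so they do not check the direction of the 12 genes. Without the spike-in factor their median was -3.82, 8514 of the 13917 loci averaging 0.5 FPKM or more were at least 2-fold lower and 1344 higher, and the medians of these loci (-1.34), of the mitochondrial transcription and RNA factors (-1.40) and of the mitochondrial DNA genes (-1.34) turned negative, as a constant shift requires. A pseudocount of 1 FPKM, larger than most values of the 6 low genes, left 6 genes at least 2-fold lower and a median of -1.15; one of 0.1 FPKM gave a median of -1.74, with 11 genes lower and mt-Nd3 at -0.84. Without a filter 2546 of all 28660 loci were lower and 14261 higher, and a mean of at least 5 FPKM left 2055 higher. Summing with the chromosome 1 copies moved the median to -2.40, and the 6 genes not wholly inside the copied stretch had -2.41. Both were chosen after seeing the data. Using the median spike-in ratio (3.50) as the factor moved no gene by more than the spike-in SD. No paired analysis was possible because the columns hold 1 pooled value per fraction and no replicate numbers, and leaving out a replicate was not run for the same reason.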
